A study of Mus musculus with 8 samples.

Results

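The genes described here encode core splicing factors and were chosen by symbol: protein-coding genes that begin with Snrp, with Sf3a or Sf3b and a number, with Srsf and a number or with Prpf and a number, without *Sf3b3* and *Sf3b5*. There were 43 of them among the 55401 genes counted, in 4 families: 12 Snrp genes (proteins of small nuclear ribonucleoproteins, snRNPs), 7 Sf3 genes (subunits of SF3A and SF3B), 11 Srsf genes (serine/arginine-rich proteins, SR proteins) and 13 Prpf genes (pre-mRNA processing factors). All 43 passed the filter on low counts and were among the 17532 genes tested. The rule reads symbols and no expression value, but it was set with earlier results of these data known. Values of *Sf3b3* are given further on, with the genes around the members.

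Splicing removes introns from pre-mRNA in the spliceosome, which assembles anew on each intron from the U1, U2, U4, U5 and U6 snRNPs. A ring of Sm proteins sits on the small nuclear RNA of U1, U2, U4 and U5, SF3A and SF3B belong to the U2 snRNP and hold the branch site, PRPF proteins build the tri-snRNP and the catalytic core, and SR proteins bind exons and guide the choice of splice sites. Many SR protein genes limit their own output through exons that carry a stop codon, so their mRNA level is itself set in part by splicing.

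Total RNA came from mouse embryonic stem cells (ESCs) in which ZZZ3 or YEATS2, subunits of the ATAC coactivator complex, carried an auxin-inducible degron, a tag through which the plant protein Tir1 marks a protein for destruction once auxin is present. The study set these RNA levels beside its nascent RNA data to ask whether changes in synthesis are offset by changes in stability. There were 2 Control libraries, 3 Zzz3 auxin libraries from a Zzz3-AID line and 3 Yeats2 auxin libraries from a Yeats2-AID line, both lines exposed to 500 µM auxin for 24 h. Per the protocols all cells grew on gelatin with serum, leukaemia inhibitory factor and the 2i inhibitors CHIR99021 and PD0325901, and G418 kept selection for Tir1. For the controls the labels give neither the line nor whether auxin or solvent was added, and although the study describes its RNA metabolism estimates for both lines as DMSO set against auxin, it does not say so of these 2 libraries, so depletion, auxin exposure and any difference of line cannot be told apart in a comparison with Control. Whether libraries of a group came from separate cultures is not given, and P values then measure only the spread between these libraries, which may be technical. The RNA is bulk RNA, where fewer cells of a type and less RNA per cell cannot be told apart.

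Libraries held 14315120 to 27884704 reads assigned to genes, of which the 43 genes took 0.994% to 1.18%. Levels are in CPM, counts divided by the size of the library after TMM scaling. *Zzz3* mRNA stood at 77.5 to 112 CPM in Zzz3 auxin and 182 to 191 CPM in the other libraries, and *Yeats2* mRNA at 43.7 to 103 CPM in Yeats2 auxin and 90.9 to 133 CPM elsewhere, although the degron acts on the protein and needs no change of mRNA. The ESC markers *Pou5f1*, *Nanog* and *Sox2* were abundant, at no less than 275 CPM in any library, while the fibroblast markers *Col1a1* and *Thy1* stayed at or below 0.729 CPM and *Fn1*, which other cells also make, ran from 701 to 1307 CPM. Libraries stood apart in GC content and depth: relative to genes in the lowest GC quartile, genes in the highest quartile were 0.59 log2 units lower in Control replicate 1 and 0.43 higher in Zzz3 auxin replicate 3, with -0.075 to 0.15 in the rest, and Zzz3 auxin replicate 3 was also the shallowest. That library held the lowest of the 8 values for 22 of the 43 members (51.2%, against 21.3% of all genes tested), and Control replicate 1 held the highest for 18 (41.9%, against 23.8%).

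Members spanned a 212-fold range of levels per kilobase of exon, from 1.07 to 227 CPM per kb in the mean of all libraries, with a median of 36.2. *Srsf1*, an SR protein with roles in both constitutive and regulated splicing, was the highest at 227 CPM per kb, followed by *Prpf8*, the large protein at the catalytic core of the spliceosome, at 154. *Srsf2* (150), *Srsf7* (132) and *Sf3b1* (120), the largest SF3B subunit, came next. *Srsf12* was the lowest of all at 1.07 CPM per kb, and the lowest of the other families were *Snrpc* (4.78), *Prpf40b* (4.54) and *Sf3b4* (6.85).

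Genes of the same complex did not have like levels per kilobase. Exon length was merged over all transcripts of a gene, and reads shared with overlapping genes or pseudogenes were not counted. These levels therefore compare genes only roughly, and *Snrpn* is a paralog of *Snrpb*. Among the 8 Sm genes the level ran from 16.5 CPM per kb for *Snrpn* and 23.4 for *Snrpg* to 88.9 for *Snrpe*, a 5.38-fold range, and among the 3 SF3A genes from 9.72 (*Sf3a2*) through 28.2 (*Sf3a1*) to 85.1 (*Sf3a3*). *Snrpa1* and *Snrpb2*, whose proteins form a pair on the U2 small nuclear RNA, lay close together at 51.7 and 61.9 CPM per kb.

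**Figure D1:**
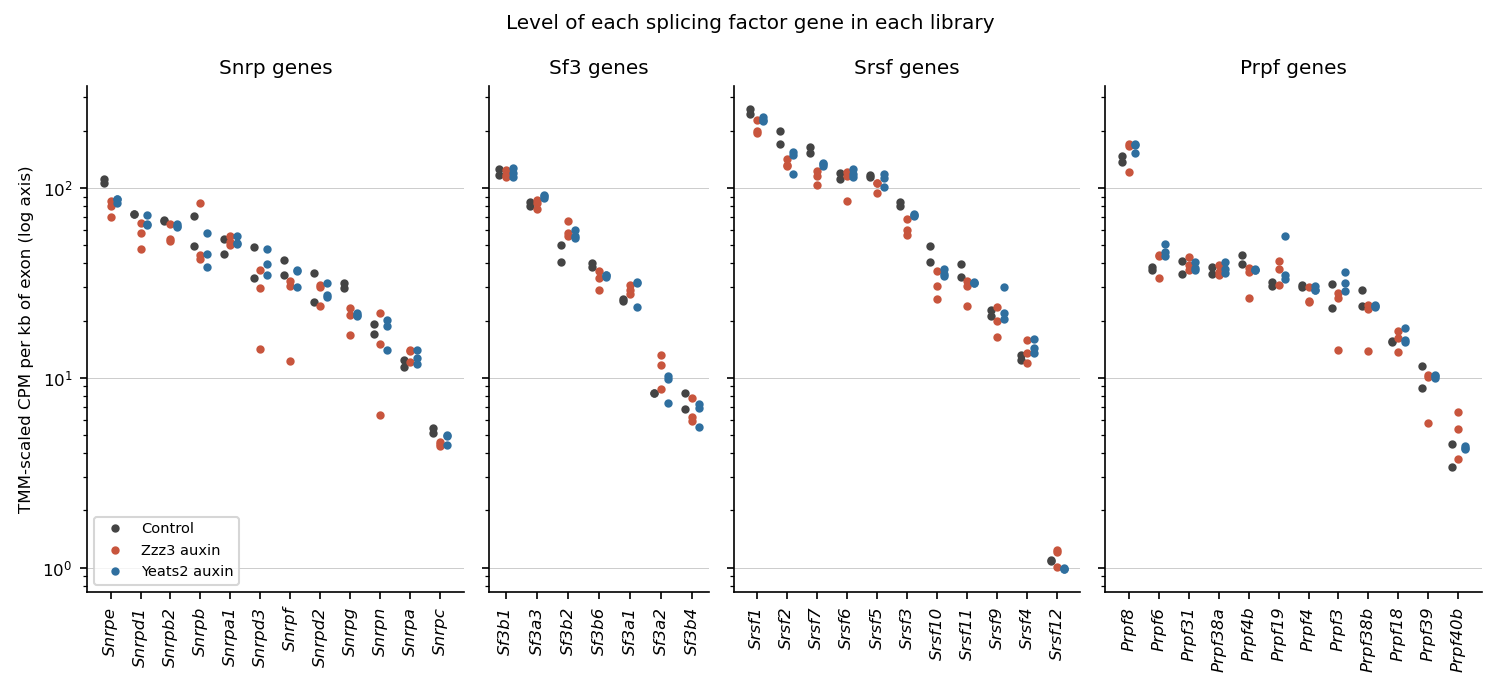
Level of 42 of the genes in TMM-scaled CPM per kb of merged exon (log axis), by family, with a point per library (grey, 2 Control; red, 3 Zzz3 auxin; blue, 3 Yeats2 auxin). Levels differ far more between genes (1.07 to 227 CPM per kb in the mean) than between groups, and Zzz3 auxin replicate 3 gives the low red points of *Snrpd3*, *Snrpf*, *Snrpn*, *Prpf3* and *Prpf38b*.

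No member passed an adjusted P of 0.05 in edgeR's quasi-likelihood test in either comparison with Control or in the direct comparison of both depletions, beside 0.753% of all genes tested in Zzz3 auxin, 0.445% in Yeats2 auxin and 0.0% in the direct comparison. At an unadjusted P under 0.05 edgeR gave 11 members in Zzz3 auxin (25.6%, against 21.7% of all genes), 7 in Yeats2 auxin (16.3%, against 14.6%) and 0 in the direct comparison (against 6.25%). The shares in both comparisons with Control were near those of all genes. DESeq2 called 6 members in Zzz3 auxin (*Snrpe*, *Snrpg*, *Srsf2*, *Srsf3*, *Srsf7* and *Srsf10*, all lower), where it called 7.81% of the genes with an adjusted P, and 0 in the other comparisons. DESeq2 called 2.75% and 0.00909% of genes there. limma-voom with quality weights called 0 members in each comparison, beside 0.468%, 2.14% and 0.0057% of all genes. With no filter on low counts edgeR called 6 members in Zzz3 auxin (4.67% of all genes), 0 in Yeats2 auxin (1.68%) and 1, *Prpf3*, in the direct comparison (0.354%). Without Zzz3 auxin replicate 2 it called 5 in Zzz3 auxin (4.84%), and with only the groups compared in the fit it called 1, *Snrpg*, in Yeats2 auxin (2.69%). The smallest adjusted P of a member was 0.0669 (*Srsf7*) in Zzz3 auxin, 0.159 (*Snrpg*) in Yeats2 auxin and 0.779, shared by several members, in the direct comparison by edgeR, and no member reached a log2 fold change (FC) of 1 in size, the threshold of the study for a differentially expressed gene.

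In Zzz3 auxin the median log2 FC was -0.28 for Snrp genes, -0.29 for Srsf genes and 0.0027 for Sf3 and -0.0037 for Prpf genes, beside 0.0098 for all genes tested. In Yeats2 auxin the medians were -0.11, -0.15, 0.14 and 0.046 in that order, beside -0.0081. Below 0 in Zzz3 auxin were 10 of 12 Snrp, 9 of 11 Srsf, 3 of 7 Sf3 and 7 of 13 Prpf genes (29 of 43 in all, 67.4%, against 48.9% of all genes). In Yeats2 auxin the counts were 10, 8, 3 and 5 (26 of 43, 60.5%, against 51.1%). Both comparisons share the 2 controls and are not independent of each other.

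In Zzz3 auxin 15 members had every library below both controls (34.9%, against 18.9% of all genes): 6 Snrp, 7 Srsf, *Sf3b6* and *Prpf4b*. Only 3 had every library above both controls (6.98%, against 16.8%), all of them Sf3 genes. In Yeats2 auxin 15 members lay below (34.9%, against 21.0%), among them 7 Srsf genes, and 6 above (14.0%, against 19.3%). Without Zzz3 auxin replicate 3 the medians in Zzz3 auxin were -0.22 for Snrp and -0.20 for Srsf genes, and 22 of 43 members were below 0.

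**Figure D2:**
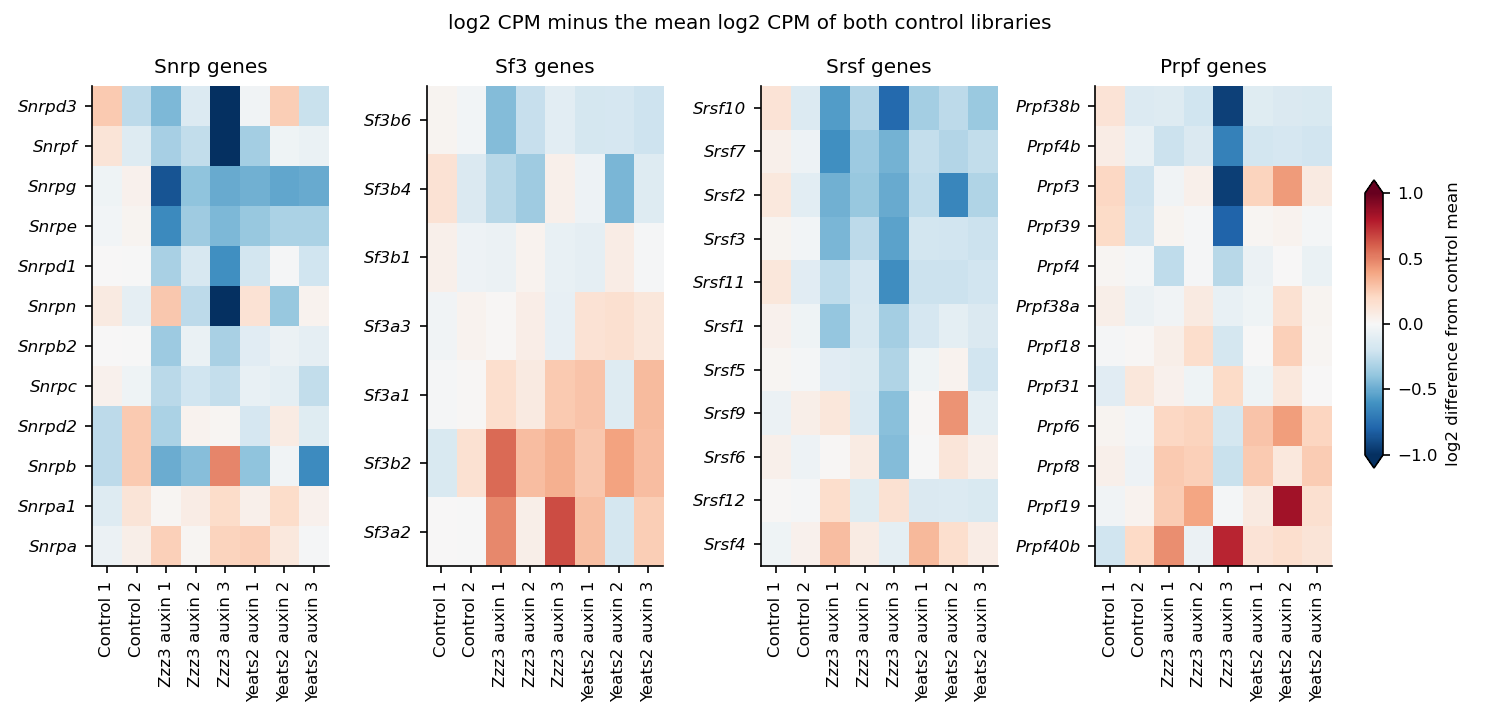
Difference of 42 members in each library from the mean log2 CPM of both controls (colour, capped at 1 log2 unit), with families side by side and genes ordered by their fold change in Zzz3 auxin. Blue fills the auxin columns of most Sm and SR genes, whereas *Snrpd3*, *Snrpf*, *Snrpn*, *Prpf3*, *Prpf38b* and *Prpf39* are deep blue in Zzz3 auxin replicate 3 alone.

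All 8 genes of the Sm core had a log2 FC below 0 in both depletions, none of them called, with medians of -0.41 (Zzz3 auxin) and -0.14 (Yeats2 auxin). Their summed level was 73.5% to 84.5% of the control mean in the 3 Zzz3 auxin libraries and 81.9% to 95.5% in Yeats2 auxin. Without Zzz3 auxin replicate 3 the Zzz3 auxin median was -0.29 with 7 of 8 below 0, and without Control replicate 1 the medians were -0.35 (8 of 8 below 0) and -0.22 (6 of 8). After the correction for GC content and length described further on, all 8 were below 0 in Zzz3 auxin but 4 of 8 in Yeats2 auxin.

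*Snrpe* (ENSMUSG00000090553, GRCm38 chr1:133603871-133610291, minus strand), which encodes SmE, had 146 and 153 CPM in the controls, 96.2, 117 and 110 CPM in Zzz3 auxin replicates 1 to 3 and 115, 120 and 120 CPM in Yeats2 auxin. Every auxin library lay below both controls, and the 3 Yeats2 auxin libraries were nearly alike. By edgeR the log2 FC came to -0.47 (SE 0.11, adjusted P 0.0719) for Zzz3 auxin, and -0.34 for Yeats2 auxin (SE 0.11, adjusted P 0.212).

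*Snrpg* (ENSMUSG00000057278, chr6:86371304-86379328, plus strand), the gene of SmG, had 46.4 and 49.5 CPM in the controls, 26.4, 36.4 and 33.7 CPM in Zzz3 auxin and 34.3, 33.4 and 33.8 CPM in Yeats2 auxin. Again no auxin library reached the controls. Its log2 FC by edgeR was -0.58 (SE 0.15, adjusted P 0.0773) in Zzz3 auxin and -0.50 (SE 0.15, adjusted P 0.159) in Yeats2 auxin, the most negative value of a member there. *Snrpe* and *Snrpg* share 20.8% and 18.1% of their 50-base stretches with annotated pseudogenes, and reads that align to both were not counted.

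For *Snrpd1*, which encodes SmD1, the controls had 150 and 149 CPM, Zzz3 auxin 119, 134 and 97.4 CPM and Yeats2 auxin 132, 148 and 130 CPM. No auxin library reached the controls, although Yeats2 auxin replicate 2 came close. In Zzz3 auxin the log2 FC was -0.35 (SE 0.14, edgeR adjusted P 0.171), and -0.23 without replicate 3.

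Other Sm genes varied more within their groups. *Snrpd3* had 167 and 116 CPM in the controls and between 49.0 (replicate 3) and 127 CPM in Zzz3 auxin, and *Snrpf* had 35.8 and 30.1 CPM beside 26.1, 27.7 and 10.5 CPM (both were chosen here after their values were seen). Replicate 3 was far below the others in both genes and weighed on their log2 FCs of -0.61 (SE 0.32) and -0.61 (SE 0.31; edgeR adjusted P 0.302 and 0.289), which were -0.29 and -0.28 without it. Without Control replicate 1 that of *Snrpd3* was -0.32. Of the exons of *Snrpf*, 65.9% are overlapped by *Ccdc38* on the opposite strand, and the strand setting of the counting is not given.

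*Snrpb* and *Snrpn* are paralogs that encode the near-identical SmB and SmN, the latter from an imprinted locus best known from neurons. *Snrpb* had 97.8 and 140 CPM in the controls, 83.2, 87.0 and 164 CPM in Zzz3 auxin and 88.9, 114 and 75.8 CPM in Yeats2 auxin. *Snrpn* had 41.6 and 36.8 CPM, then 47.3, 32.7 and 13.7 CPM, then 43.2, 30.1 and 40.2 CPM. In Zzz3 auxin replicate 3 *Snrpb* was at its highest and *Snrpn* at its lowest of all 8 libraries. Log2 FCs in Zzz3 auxin were -0.10 (SE 0.29) for *Snrpb* and -0.32 (SE 0.38) for *Snrpn* (edgeR adjusted P 0.880 and 0.665), and without replicate 3 they were -0.47 and 0.039. Other libraries weighed as much, since *Snrpb* had 0.19 without Control replicate 2, and *Snrpn* -0.72 without Zzz3 auxin replicate 1. The count of *Snrpn* excludes reads that also fall in *Gm38393* or *Snurf* on the same strand, which cover 27.3% and 10.0% of its exons.

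In Zzz3 auxin the median log2 FC of 2 genes whose proteins are particular to the U1 snRNP was -0.037, and that of 2 such genes of the U2 snRNP was -0.080. *Snrpc*, the gene of the U1-C protein that helps U1 meet the splice site, had 35.3 and 33.3 CPM in the controls, 28.5, 29.9 and 29.0 CPM in Zzz3 auxin (log2 FC -0.23, SE 0.12, edgeR adjusted P 0.296) and 32.6, 32.0 and 28.9 CPM in Yeats2 auxin (-0.14, SE 0.12, adjusted P 0.639; -0.087 without replicate 3), without overlap in either case. *Snrpb2*, encoding U2-B″, lay at 192 and 193 CPM in the controls, 149 to 183 CPM in Zzz3 auxin and 178 to 185 CPM in Yeats2 auxin. *Snrpa* and *Snrpa1* (U1-A and U2-A′) overlapped with the controls in both depletions, with log2 FCs of 0.086 to 0.16.

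The 3 SF3A genes had a log2 FC above 0 in both depletions (median 0.18 and 0.14). Of the 4 SF3B members 3 had a log2 FC below 0 in both depletions (median -0.12 and -0.096). The largest difference among them as fitted was that of *Sf3b2*, the only one above 0. The SF3B gene *Sf3b3*, which is not a member, was called lower in Zzz3 auxin and is given further on. After the correction for GC content and length 2 of the 3 SF3A genes were below 0 in Zzz3 auxin (*Sf3a2* at -0.090 and *Sf3a3* at -0.0040) and 1 in Yeats2 auxin (*Sf3a2* at -0.14). *Sf3b2* (ENSMUSG00000024853, chr19:5273932-5295455, minus strand), whose protein contacts the pre-mRNA next to the branch site, had 278 and 342 CPM in the controls, 456, 381 and 395 CPM in Zzz3 auxin and 372, 407 and 382 CPM in Yeats2 auxin. Every auxin library exceeded both controls. Its log2 FC by edgeR was 0.41 (SE 0.13, adjusted P 0.118) in Zzz3 auxin and 0.32 (SE 0.13, adjusted P 0.286) in Yeats2 auxin, and 0.26 and 0.18 without Control replicate 1.

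*Sf3a2*, which belongs to the SF3A trimer, had 22.2 CPM in both controls, 31.0, 23.2 and 34.9 CPM in Zzz3 auxin and 27.3, 19.6 and 26.3 CPM in Yeats2 auxin. The Zzz3 auxin libraries all lay above the controls (log2 FC 0.42, SE 0.20, edgeR adjusted P 0.245), replicate 2 by only 1 CPM, and the Yeats2 auxin libraries lay on both sides. Of the exons of *Sf3a2*, 16.1% are overlapped by *Plekhj1* on the opposite strand. *Sf3a3* overlapped with the controls in Zzz3 auxin (216 to 240 CPM, against 223 and 233) and lay above them in all 3 Yeats2 auxin libraries (247 to 255 CPM; log2 FC 0.14, SE 0.10, edgeR adjusted P 0.563).

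*Sf3b1*, which encodes the branch-site binding scaffold of SF3B, had 1425 and 1326 CPM in the controls, 1322, 1410 and 1303 CPM in Zzz3 auxin and 1290, 1448 and 1366 CPM in Yeats2 auxin, with full overlap. The log2 FC in Zzz3 auxin was -0.033 with a 95% interval of -0.27 to 0.21, and in Yeats2 auxin -0.0081 with an interval of -0.25 to 0.23. The small subunit gene *Sf3b6* lay below the controls in every auxin library, with 114 and 109 CPM in the controls, 82.6, 95.4 and 104 CPM in Zzz3 auxin (log2 FC -0.25, SE 0.12, edgeR adjusted P 0.243; -0.15 without replicate 1) and 96.6 to 99.5 CPM in Yeats2 auxin (-0.18, SE 0.12, adjusted P 0.50). *Sf3b4* had 18.1 and 14.7 CPM in the controls and 11.9 to 16.9 CPM in the auxin libraries (log2 FC -0.20, SE 0.19, edgeR adjusted P 0.576 in Zzz3 auxin; -0.048 without Control replicate 1 and -0.33 without Control replicate 2), and 49.3% of its 50-base stretches also occur in a pseudogene, which makes its level uncertain.

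**Figure D3:**
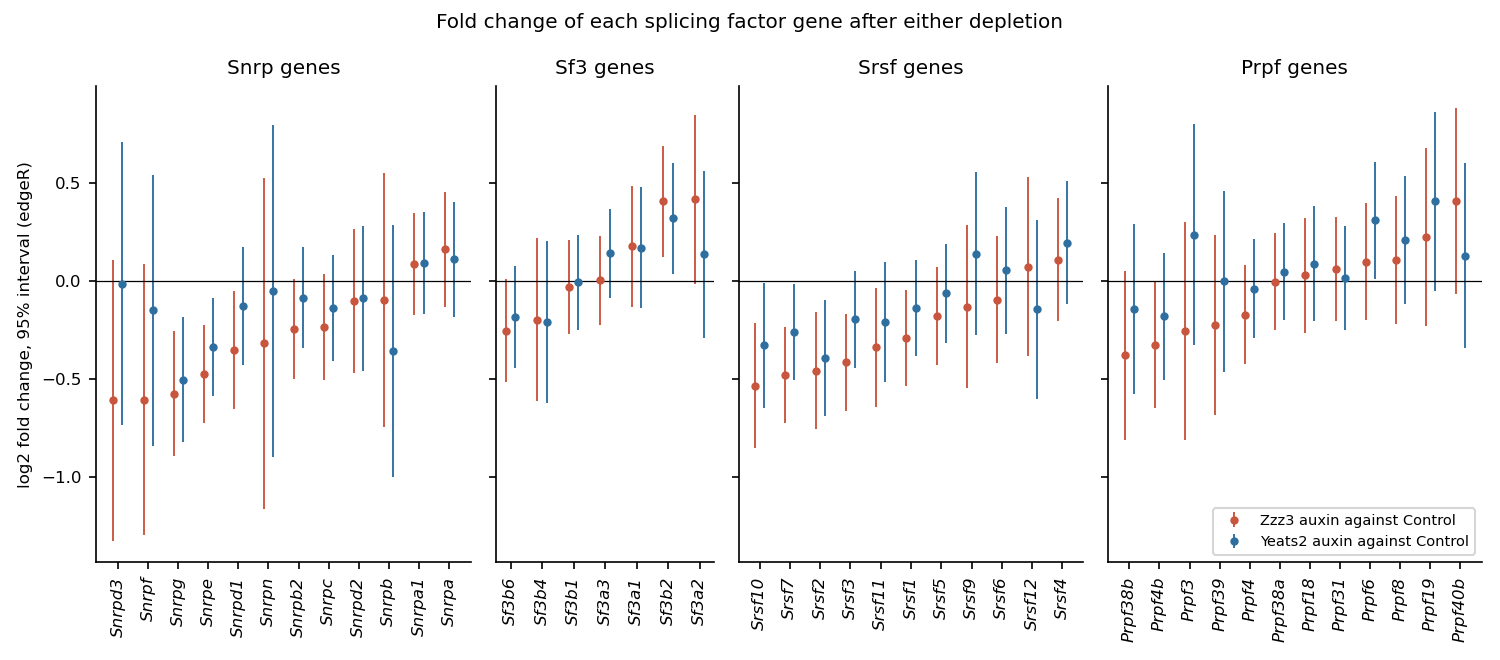
Log2 fold change of 42 members against Control by edgeR, with 95% intervals (red, Zzz3 auxin; blue, Yeats2 auxin), ordered within families by the value in Zzz3 auxin. Intervals of *Snrpg*, *Snrpe*, *Srsf10*, *Srsf7* and *Srsf2* lie below 0 in both comparisons and that of *Sf3b2* above, before any adjustment for 17532 tests, and *Snrpn* has the widest interval.

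SR protein genes made up 7 of the 15 members below both controls in each depletion. Of the 11, 6 were lower than Control at an unadjusted P under 0.05 by edgeR in Zzz3 auxin (against 10.1% of all genes) and 3 in Yeats2 auxin (against 6.98%), and 7 had every library below both controls in each depletion. Their summed level was 79.0%, 87.5% and 73.5% of the control mean in Zzz3 auxin and 88.3% to 89.8% in Yeats2 auxin, a narrow range beside the 96.0% and 104% of the controls themselves.

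*Srsf7* (ENSMUSG00000024097, chr17:80200080-80207307, minus strand), an SR protein with a zinc knuckle that also links splicing to mRNA export, had 586 and 544 CPM in the controls, 369, 438 and 408 CPM in Zzz3 auxin and 479, 460 and 475 CPM in Yeats2 auxin. The 3 groups did not overlap, with Zzz3 auxin lowest and Control highest. The log2 FC by edgeR was -0.48 (SE 0.11, adjusted P 0.0669) in Zzz3 auxin and -0.26 (SE 0.11, adjusted P 0.310) in Yeats2 auxin.

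*Srsf3* (ENSMUSG00000071172, chr17:29032628-29043373, plus strand), a small SR protein that is an export adaptor as well, showed the same order without overlap: 662 and 637 CPM in the controls, 472, 541 and 448 CPM in Zzz3 auxin and 572, 569 and 560 CPM in Yeats2 auxin. Its log2 FC was -0.42 (SE 0.11, edgeR adjusted P 0.0881) in Zzz3 auxin and -0.20 (SE 0.11, adjusted P 0.444) in Yeats2 auxin.

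*Srsf2* (ENSMUSG00000034120, chr11:116849901-116853094, minus strand), also called SC35 and known as a marker of nuclear speckles, had 588 and 507 CPM in the controls, 392, 419 and 385 CPM in Zzz3 auxin and 459, 348 and 443 CPM in Yeats2 auxin. All 6 auxin libraries lay below the controls. Its log2 FC was -0.46 (SE 0.14, edgeR adjusted P 0.104) and -0.39 (SE 0.14, adjusted P 0.222), and of its exons 15.6% are overlapped by *Mettl23* on the opposite strand.

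*Srsf10*, an SR protein that represses splicing when dephosphorylated, had 344 and 283 CPM in the controls, 212, 255 and 182 CPM in Zzz3 auxin and 247, 261 and 241 CPM in Yeats2 auxin. The log2 FC in Zzz3 auxin, -0.54 (SE 0.15, edgeR adjusted P 0.0882), was the most negative of the family, with -0.33 in Yeats2 auxin (SE 0.15, adjusted P 0.327; -0.18 without Control replicate 1). *Srsf11* had 334 and 285 CPM in the controls and 258, 274 and 200 CPM in Zzz3 auxin (log2 FC -0.34, SE 0.14, edgeR adjusted P 0.190; -0.20 without replicate 3; named here after its values were seen). *Srsf1* had 1486 and 1400 CPM in the controls, 1105, 1293 and 1142 CPM in Zzz3 auxin (log2 FC -0.29, SE 0.11, edgeR adjusted P 0.171) and 1282, 1345 and 1304 CPM in Yeats2 auxin, below both controls in every auxin library.

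*Srsf5* lay below both controls (466 and 455 CPM) in Zzz3 auxin, with 425, 421 and 373 CPM, and overlapped with them in Yeats2 auxin. *Srsf6* and *Srsf9* overlapped with the controls in both depletions, *Srsf4* lay above the controls in Yeats2 auxin (47.9 to 56.9 CPM, against 44.1 and 46.7), and *Srsf12*, at 3.09 to 3.88 CPM in all libraries, had log2 FCs of 0.072 (Zzz3 auxin) and -0.15 (Yeats2 auxin; SE 0.21 in both, edgeR adjusted P 0.876 and 0.780). *Srsf12* lay below the controls in Yeats2 auxin without overlap, by less than 1 CPM. Of the exons of *Srsf4*, 43.0% are overlapped by *Gm12992* on the opposite strand, and the strand setting of the counting is not given. *Srsf7* and *Srsf6* had like levels per kilobase (132 and 114), yet the log2 FC of *Srsf6* was -0.096 in Zzz3 auxin (0.061 without replicate 3).

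Of the 11 SR promoters 4 (36.4%) hold TATAA, the core of the TATA box, on either strand between 250 bases before and 50 bases after the start. The 4 are *Srsf2*, *Srsf3*, *Srsf6* and *Srsf7*, and all but that of *Srsf6* are shown. The 3 genes shown lay below both controls in every auxin library, whereas *Srsf6* overlapped with the controls. Of all 32851 RefSeq promoters (GRCm38.p6) 24.9% hold these letters. Of the 38 members listed there 7 do (18.4%), among them 3 of 10 Snrp promoters, but of the 6 Sf3 and 11 Prpf promoters none. The share of all promoters is over single promoters, of genes expressed here or not. A member counts if any of its listed promoters holds the letters. On the gene's own strand and between 40 and 20 bases before the start, where a TATA box acts, only *Srsf2* and *Srsf7* of the 38 hold them, against 3.52% of all promoters. The 100 bases before the RefSeq start follow, 5′ to 3′ on the strand of the gene, with TATAA in capitals.
Srsf2 (chr11:116853095-116853194, minus strand): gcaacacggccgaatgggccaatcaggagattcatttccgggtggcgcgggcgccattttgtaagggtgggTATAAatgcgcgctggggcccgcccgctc
Srsf3 (chr17:29032560-29032659, plus strand): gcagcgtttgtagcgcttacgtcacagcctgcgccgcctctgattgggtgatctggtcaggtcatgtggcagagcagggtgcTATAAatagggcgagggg
Srsf7 (chr17:80207306-80207405, minus strand): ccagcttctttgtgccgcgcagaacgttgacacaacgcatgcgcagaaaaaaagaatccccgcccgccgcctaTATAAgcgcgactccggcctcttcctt
The letters begin 29, 18 and 27 bases before the RefSeq start in that order. For *Srsf3* the gene start given above is from another annotation and lies upstream of the RefSeq start. Its TATAA falls inside the gene by those coordinates. A match of letters is a description of the sequence and says nothing of what binds there.

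For the Sf3 family a different run of letters stood out. CCGGAAG, the sequence read by ETS-family factors, occurred on either strand in 5 of 6 Sf3 promoters (*Sf3a1*, *Sf3a2*, *Sf3a3*, *Sf3b2* and *Sf3b6*), in 4 of 10 Snrp, 4 of 11 Srsf and 4 of 11 Prpf promoters, thus in 17 of 38 members (44.7%), against 8.86% of all promoters. GGGCGG, the GC box, occurred in 25 of 38 (65.8%, against 35.7%), among them 10 of 11 SR genes, and CCAAT in 15 of 38 (39.5%, against 37.4%). Here too the shares of all promoters are over single promoters, of genes expressed here or not. All members are expressed genes, so these shares are not particular to splicing factor genes as far as was tested. The promoters of *Sf3b2* and *Sf3a1* are given with CCGGAAG in capitals, since both genes lay above the controls in every Zzz3 auxin library (*Sf3a1*, with 157 and 160 CPM in the controls and 169 to 190 CPM in Zzz3 auxin, was chosen here after its values were seen). The same letters also occur in the promoters of *Snrpe* and *Snrpg*, which lay below the controls.
Sf3b2 (chr19:5295458-5295557, minus strand): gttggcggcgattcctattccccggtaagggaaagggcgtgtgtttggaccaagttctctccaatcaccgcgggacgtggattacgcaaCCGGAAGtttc
Sf3a1 (chr11:4160254-4160353, plus strand): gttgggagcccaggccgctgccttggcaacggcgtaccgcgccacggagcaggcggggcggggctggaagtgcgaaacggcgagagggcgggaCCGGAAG

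Prpf genes were spread around the controls, with log2 FCs from -0.38 (*Prpf38b*) to 0.41 (*Prpf40b*) in Zzz3 auxin and up to 0.41 (*Prpf19*) in Yeats2 auxin. Of the 5 genes of U4/U6 and U5 proteins, 4 had a log2 FC above 0 in Yeats2 auxin, with a median of 0.21 and none called. *Prpf8* had 1092 and 1021 CPM in the controls, 1265, 1243 and 904 CPM in Zzz3 auxin and 1266, 1139 and 1256 CPM in Yeats2 auxin, so that every Yeats2 auxin library and replicates 1 and 2 of Zzz3 auxin exceeded the controls while replicate 3 lay below them. Its log2 FC was 0.11 (SE 0.15, edgeR adjusted P 0.716) and 0.21 (SE 0.15, adjusted P 0.544), the former 0.26 without replicate 3 and 0.040 without replicate 1. *Prpf6*, the bridge between U5 and U4/U6, followed the same pattern with 149 and 143 CPM in the controls, 168, 170 and 129 CPM in Zzz3 auxin (log2 FC 0.097, SE 0.14, edgeR adjusted P 0.719; 0.23 without replicate 3, 0.036 without replicate 2) and 178, 194 and 169 CPM in Yeats2 auxin (0.31, SE 0.14, adjusted P 0.325).

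*Prpf19*, a ubiquitin ligase of the catalytic spliceosome, had 221 and 232 CPM in the controls, 271, 299 and 224 CPM in Zzz3 auxin (log2 FC 0.22, SE 0.21, edgeR adjusted P 0.564; 0.34 without replicate 3, 0.13 without replicate 2) and 242, 406 and 253 CPM in Yeats2 auxin. For Yeats2 auxin, where replicate 2 stood far above the others, the log2 FC was 0.41 (SE 0.21, edgeR adjusted P 0.386), and 0.13 without that library. *Prpf4b*, a kinase that phosphorylates tri-snRNP proteins, had 373 and 336 CPM in the controls, 305, 320 and 222 CPM in Zzz3 auxin (log2 FC -0.33, SE 0.15, edgeR adjusted P 0.227; -0.17 without replicate 3) and 311 to 315 CPM in Yeats2 auxin, below the controls throughout.

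*Prpf40b*, a relative of a yeast U1 snRNP protein that was expressed at 4.54 CPM per kb, had 16.7 and 22.1 CPM in the controls and 26.6, 18.5 and 32.5 CPM in Zzz3 auxin (log2 FC 0.41, SE 0.22, edgeR adjusted P 0.298). That value was 0.22 without Control replicate 1, 0.63 without Control replicate 2, 0.23 without Zzz3 auxin replicate 3 and 0.088 after the correction for GC content and length. *Prpf38b* had 201 and 167 CPM in the controls and 167, 160 and 95.8 CPM in Zzz3 auxin (log2 FC -0.38, SE 0.20, edgeR adjusted P 0.286), and -0.15 without replicate 3 or -0.24 without Control replicate 1. *Prpf3*, *Prpf4*, *Prpf18*, *Prpf31*, *Prpf38a* and *Prpf39* overlapped with the controls in both depletions.

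Summed over functional groups, the Sm core and the SR proteins lay below both controls in all 6 auxin libraries. The 5 proteins of U4/U6 and U5 summed to 111% to 115% of the control mean in every auxin library except Zzz3 auxin replicate 3, at 85.9%. *Prpf8*, whose values are given above, held most of each sum and weighs most on these percentages. The median log2 FC of the 5 genes was 0.061 in Zzz3 auxin, with 2 below 0, and 0.21 in Yeats2 auxin, with 1 below 0. In the same way *Sf3b1* held most of the SF3B sum. SF3A summed to 103% to 115% and SF3B, without *Sf3b3* and *Sf3b5*, to 98.0% to 108%.

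**Figure D4:**
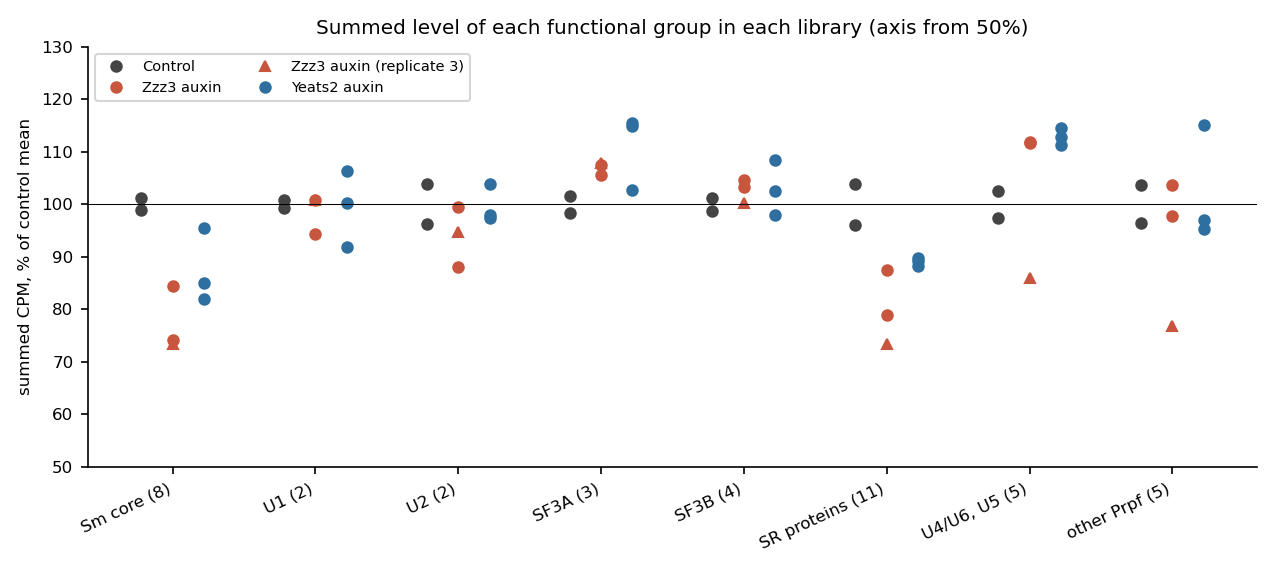
Summed CPM of 8 functional groups in each library as a percentage of the mean of both controls (vertical axis from 50%), with the number of genes in brackets, a point per library and Zzz3 auxin replicate 3 as a triangle. Sm core and SR proteins lie at 73.5% to 95.5% in the auxin libraries, and the triangle drops below the other libraries in the Prpf groups.

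Set directly against each other, Yeats2 auxin was higher than Zzz3 auxin for 34 of 43 members, leaving 9 below 0 (20.9%, against 52.2% of all genes). The median log2 difference was 0.12 for all members, 0.15 for Srsf, 0.13 for Prpf, 0.12 for Snrp and -0.0066 for Sf3 genes, beside -0.013 for all genes tested. No single member passed the test, and members without overlap were few: 4 higher (*Prpf3*, *Sf3a3*, *Srsf3* and *Srsf7*; 9.30%, against 5.25% of all genes) and 1 lower (*Srsf12*; 2.33%, against 5.82%). *Srsf7* differed by 0.22 (SE 0.10, edgeR unadjusted P 0.0507, adjusted P 0.779) and *Srsf3* by 0.22 (SE 0.10, unadjusted P 0.0531, adjusted P 0.779). The differences of *Prpf3* (0.49, SE 0.23, edgeR adjusted P 0.779) and *Snrpd3* (0.59, SE 0.29, adjusted P 0.779) rested on Zzz3 auxin replicate 3 and were 0.24 and 0.30 without it. For *Sf3a3* the difference was 0.14 (SE 0.093, edgeR adjusted P 0.782) and for *Srsf12* -0.22 (SE 0.19, adjusted P 0.816). Without replicate 3 the median of all members was 0.060, with 33 of 43 still above 0.

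Fold changes of the members went with GC content. Srsf transcripts had a median GC content of 42.8% and Prpf of 46.2%, Snrp of 45.7% and Sf3 of 50%, beside 49.0% for all genes with a sequence. Across the 43 members, Pearson's r of GC content with log2 FC was 0.63 in Zzz3 auxin and 0.43 in Yeats2 auxin (Spearman's rho 0.58 and 0.45), across 17510 genes tested 0.37 and 0.31 (rho 0.45 and 0.39). These points are genes of the same 8 libraries and not independent replicates. A fit that takes out how each library varies with transcript GC and length left an r of 0.045 and -0.20 over the members.

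The Srsf median went from -0.29 to -0.084 in Zzz3 auxin and from -0.15 to -0.034 in Yeats2 auxin, the Snrp median from -0.28 to -0.17 and from -0.11 to 0.017, and the Sm median from -0.41 to -0.21 (8 of 8 below 0) and from -0.14 to -0.068 (4 of 8). Of the 43 members, 7 changed sign with the correction for Zzz3 auxin and another 27 moved by over 1.5 times. For Yeats2 auxin the counts were 14 and 20. *Srsf2* (log2 FC -0.47, SE 0.12, adjusted P 0.0949 in Zzz3 auxin; -0.41 in Yeats2 auxin) and *Snrpg* (-0.46, SE 0.13, adjusted P 0.112; -0.42) kept most of their difference in the corrected edgeR fit, and *Snrpe* had -0.24, *Srsf7* -0.27 and *Srsf3* -0.23 in Zzz3 auxin. For *Srsf1* the log2 FC of -0.29 in Zzz3 auxin became -0.082 and that of -0.14 in Yeats2 auxin became 0.031, while *Sf3b4* went from -0.20 to -0.48 and from -0.21 to -0.41. *Sf3b2* had 0.21 in place of 0.41, and *Sf3a2*, with 62.2% GC the most GC-rich member, had -0.090 in place of 0.42. In the direct comparison the correction left the median of the members at 0.098, with 34 of 43 above 0. The part of GC content in the differences was not tested beyond these values.

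**Figure D5:**
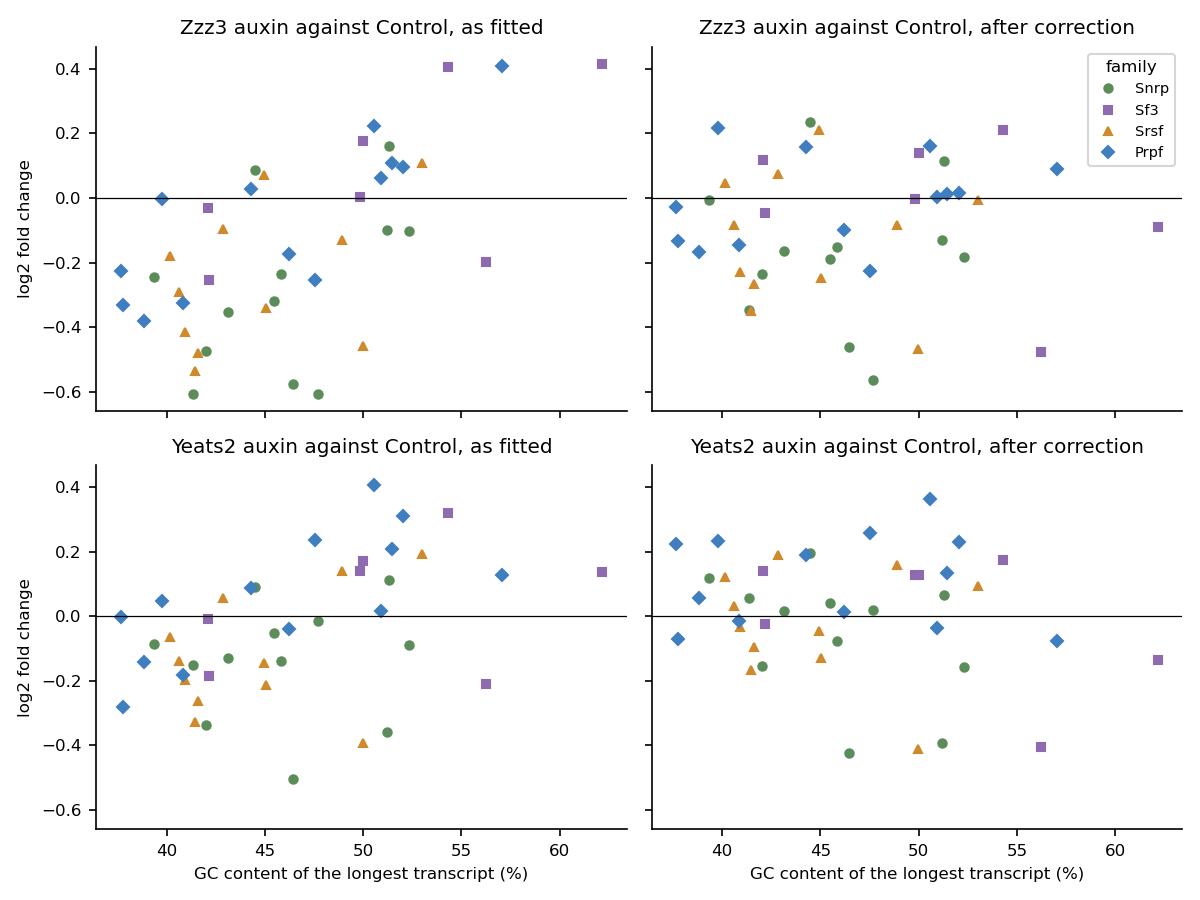
Log2 fold change against Control for each member over the GC content of its longest transcript (%), in Zzz3 auxin (top) and Yeats2 auxin (bottom), as fitted (left) and after correction of every library for transcript GC and length (right), with a symbol per family. On the left r is 0.63 and 0.43 over 43 genes. The correction takes out such a trend by design and leaves 0.045 and -0.20 on the right, the latter with reversed sign. There *Srsf2*, *Snrpg* and *Snrpd3* remain low in Zzz3 auxin and *Sf3b4* lies lower than on the left.

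Genes around the members in the splicing pathway were examined as 11 lists, with 157 genes tested. In Zzz3 auxin 2 of them were called by edgeR (1.27%, against 0.753% of all genes), with 47 (29.9%, against 21.7%) at an unadjusted P under 0.05. Both calls were lower: *Lsm8*, whose protein belongs to the ring on U6, with a log2 FC of -0.72 (SE 0.14, adjusted P 0.0466), and *Sf3b3*, the SF3B subunit left out of the members, with -0.53 (SE 0.10, adjusted P 0.0454). In Yeats2 auxin and in the direct comparison 0 were called, with 24 (15.3%, against 14.6%) and 5 (3.18%, against 6.25%) at an unadjusted P under 0.05. DESeq2 called 12 of these genes in Zzz3 auxin (7.74%, against 7.81%), 2 in Yeats2 auxin (1.28%, against 2.75%) and 0 in the direct comparison, and limma-voom with quality weights 1 (0.637%, against 0.468%), 3 (1.91%, against 2.14%) and 0. *Lsm8* had 126 and 119 CPM in the controls, 63.0 to 84.6 CPM in Zzz3 auxin and 77.3 to 95.4 CPM in Yeats2 auxin, and *Sf3b3* 671 and 660 CPM, then 441 to 486 CPM, then 467 to 491 CPM.

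By list, hnRNP proteins, RNA-binding proteins that often oppose SR proteins, had median log2 FCs of -0.33 (Zzz3 auxin, 21 of 23 below 0) and -0.097 (Yeats2 auxin, 18 of 23). Of all genes tested 48.9% and 51.1% were below 0. Summed hnRNP levels overlapped, with 9662 to 12054 CPM in the controls, 6425 to 10314 in Zzz3 auxin and 10129 to 10892 in Yeats2 auxin. The spliceosomal helicases had 0.25 in both (8 of 10 above 0). Medians of the lists were not followed without single libraries or after the GC correction. LSm proteins had -0.18 and -0.089, SR-related regulators -0.16 and -0.11, kinases of SR proteins -0.16 and -0.17 and assembly factors of the Sm ring (SMN complex) -0.12 and 0.062. Other snRNP proteins had 0.062 and 0.091, partners of PRPF19 0.028 and 0.11 and U2 auxiliary factors -0.11 and -0.032. The exon junction complex had 0.031 and 0.065 and the minor spliceosome -0.0078 and 0.11.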

How the data were processed

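Total RNA-seq of 8 ESC libraries was analysed. The deposited values are raw counts per gene, 1 file per library. Per the study's methods and the submitters' processing notes, the authors trimmed reads, removed ribosomal RNA reads, aligned with STAR 2.5.3a to mm10 and counted uniquely aligned, unambiguous reads with HTSeq 0.6.1p1 in union mode, and used DESeq2 1.16.1 in R 3.3.2. The molecule label reads poly(A) RNA, but the library protocol removes ribosomal RNA instead. The library kit was stranded, and the strand setting of the counting is not given in the sources used here. The 5 tallies of unassigned reads were left out (reads in no feature made up 29.6% to 37.1% of assigned, ambiguous and no-feature reads together).

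GENCODE annotation of GRCm38 (the assembly of mm10) gave symbols, biotypes, exon lengths and overlaps for 55141 of 55401 genes. In R 4.3.3, edgeR 4.0.16 (filterByExpr, TMM, robust quasi-likelihood test) was fitted to all 8 libraries with a mean per group, and two-sided P values were adjusted by Benjamini and Hochberg over 17532 genes. A call is an adjusted P under 0.05. SE is the log2 FC divided by the square root of F. Alternatives were DESeq2 1.42.0, limma 3.58.1 (voom), other scaling and filters, the compared groups alone, a replicate block, a GC and length correction (lowess span 0.3) and leaving out each library. Tables and figures used Python 3.11.15, pandas 2.3.3, numpy 2.4.6 and matplotlib 3.10.9. Promoters are from RefSeq (38 of 43 members matched). The pipeline was tested on simulated counts.

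The members, families and pathway lists were chosen with earlier results of these data known. Named members were those with the 3 smallest P values per family and comparison, the highest and lowest per kilobase of each family, and *Snrpb*, *Snrpn*, *Sf3b1*, *Srsf3*, *Srsf7* and *Prpf8*; others are marked or given as counts and ranges. The values of 1 member are not reported here, and it enters counts and medians only. With 14315120 to 27884704 assigned reads, counting error is small for all members but *Srsf12*, and the number of libraries limits precision.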

Additional observations from a re-analysis of the deposited data

How the results depend on the processing

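Over 18 alternatives, most values kept their direction and their side of the threshold. The number of members called in Zzz3 auxin went from 0 to 6 with DESeq2 and 6 with no filter on low counts. It was 0 to 5 when each auxin library was left out (5 without Zzz3 auxin replicate 2: *Snrpe*, *Snrpg*, *Srsf3*, *Srsf7* and *Srsf10*). All genes called went from 132 to 1079 and 1542 in the first 2 settings. They were 3 to 841 when each auxin library was left out, with 841 without Zzz3 auxin replicate 2. In Yeats2 auxin 1 member (*Snrpg*) was called when only the groups compared were fitted, with all genes going from 78 to 454. When a Yeats2 auxin library was left out 0 members were called, but only 0 to 4 of all genes. When a Zzz3 auxin library was left out 0 members were called, beside 73 to 217 of all genes. In the direct comparison 1 member (*Prpf3*) was called with no filter. In Zzz3 auxin the GC and length correction gave medians of -0.084 for the members, -0.17 for Snrp and -0.084 for Srsf genes, in Yeats2 auxin 0.031, 0.017 and -0.034, with 0.13 for Prpf genes. Leaving out each library gave -0.025 to 0.056 for Sf3 genes in Zzz3 auxin, -0.094 to -0.028 for the members and -0.18 to -0.096 for Srsf genes in Yeats2 auxin, and 0.019 to 0.22 for Prpf genes in the direct comparison, lowest without Zzz3 auxin replicate 3. Of the members' fold changes followed through all alternatives, directions turned for *Snrpb* in Zzz3 auxin (0.19 without Control replicate 2, 0.089 without Zzz3 auxin replicate 1, 0.061 without replicate 2, and a range of -0.47 to 0.19 over the libraries left out), *Snrpn* (0.039 without replicate 3, range -0.72 to 0.039), *Sf3a2* (-0.090 after the GC correction) and *Sf3b1* (0.12 after the GC correction, 0.017 without Control replicate 1, 0.0033 without Zzz3 auxin replicate 3, range -0.080 to 0.017). *Srsf6* in Zzz3 auxin turned to 0.073 after the GC correction (0.13 with the block added; range -0.19 to 0.061 over the libraries left out) and *Srsf1* in Yeats2 auxin to 0.031 (0.035 with the block). For *Sf3b1* in Yeats2 auxin, -0.0081 turned to 0.015 with no filter, 0.000986 with a mean of at least 1 CPM, 0.0085 with only the groups compared, 0.0015 with the replicate block, 0.14 after the GC correction and 0.14 with both (range -0.056 to 0.044 over the libraries left out). Beyond what each alternative leaves out, the cause was not tested.

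Same-numbered libraries showed no clear pairing: 3 of 7 pairs had a correlation above 0.1 (range -0.34 to 0.31), and 3 of 8 libraries went best with their own number. The deviations of the 2 controls from their mean mirror each other, so these correlations are not independent. This check therefore cannot exclude a pairing. With the replicate block 0 members were called in each comparison, and the genes called in Zzz3 auxin went from 132 to 42. The median of Sf3 genes in Zzz3 auxin was 0.029 and that of the members in Yeats2 auxin -0.0037. With the block and the GC correction together the medians were -0.068 (members), -0.16 (Snrp) and -0.079 (Srsf) for Zzz3 auxin, against 0.076, 0.079 and -0.0089 for Yeats2 auxin, with 0.21 for Prpf genes, and *Sf3a2* and *Sf3b1* had -0.10 and 0.12 in Zzz3 auxin. With 2 controls, 95% intervals of the members reached 0.23 to 0.84 log2 units to either side in Zzz3 auxin (median 0.31). A difference smaller than its interval could not be told from 0 even before adjustment. Larger ones could also miss the adjusted threshold, as did *Snrpg* in Zzz3 auxin (-0.58, edgeR adjusted P 0.0773).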
